A study of Mus musculus with 75 samples.

Results

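Cyp2e1, the mouse gene for cytochrome P450 2E1, is 1 of 22781 genes counted in the series, and its level is described here in all 75 libraries. The gene was chosen by its measured level, which differed among tissues, diets and genomes in these same libraries, so its values are given with their spread and without a test. The libraries are RNA-seq of mice whose nuclear and mitochondrial genomes come from C57BL6/J or C3H/HeN. The unexchanged strains are written C57n:C57mt and C3Hn:C3Hmt. In the mitochondrial-nuclear exchange (MNX) lines, C57n:C3Hmt and C3Hn:C57mt, the cells carry the nucleus (n) of one strain with the mitochondrial DNA (mt) of the other. All mice were weaned onto chow and either stayed on it or were moved to a high-fat diet (HFD) at 6 weeks of age, until tissue was taken at 12 to 13 weeks. Epididymal white fat (eWAT, visceral) and inguinal white fat (iWAT, subcutaneous) were sampled on both diets and gastrocnemius muscle on chow, which makes 20 groups of 3 or 4 libraries. The labels give an animal number for each library and no sex, litter, founder number or HFD composition.

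CYP2E1 is a membrane-bound haem enzyme of the endoplasmic reticulum, with a smaller pool in mitochondria, that oxidises ethanol, acetone, fatty acids and small drugs such as acetaminophen. It takes its electrons from NADPH through cytochrome P450 reductase (Por) and cytochrome b5, and it leaks reactive oxygen while it turns over. It is best known from hepatocytes around the central vein, where beta-catenin signalling drives its transcription and where fasting, diabetes and obesity raise the protein; it is also made in fat cells.

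In the NCBIM37 (mm9) build the GENCODE gene lies on the plus strand of chromosome 7, from 147949638 to 147960874, with 3 annotated transcripts. The transcript that begins at the gene start has 9 exons. The 250 bases before the RefSeq start, chr7:147949468-147949717 on the plus strand, are shown because the comparison between nuclear genomes is also one between 2 copies of this gene. The reference was built from C57BL/6J, so these are the letters of the C57 copy, and the C3H copy was not analysed here. Capitals mark the TATA box TATAAA, 31 bases before the start, and 2 CCAAT boxes (CCAAT, here on the minus strand and so read as ATTGG), 210 and 68 bases before it.
Cyp2e1 promoter: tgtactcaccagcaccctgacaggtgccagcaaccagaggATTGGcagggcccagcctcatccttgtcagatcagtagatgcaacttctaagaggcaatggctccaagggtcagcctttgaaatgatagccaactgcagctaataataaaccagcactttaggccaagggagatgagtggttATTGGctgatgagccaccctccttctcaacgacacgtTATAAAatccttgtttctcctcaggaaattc
Among 32851 RefSeq windows of this length, 12.4% hold TATAAA and 33.8% hold CCAAT on either strand. The GENCODE gene starts 79 bases before the end of the window. The TATA box and the nearer CCAAT box, 31 and 68 bases before the RefSeq start, therefore lie inside the GENCODE gene. A match is a description of the letters only.

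Library totals ran from 15.7 M to 31.5 M expected counts, and Cyp2e1 itself was counted between 65.7 and 85674 times per library. Levels below are in CPM, read counts relative to the library total, scaled over all 75 libraries by the trimmed mean of M values (TMM), and differences are on the log2 scale with a prior count of 2. Of the eWAT libraries, 6 carried epididymal epithelium RNA at over 5 times the eWAT median of its summed markers. Of the iWAT libraries, 7 likewise carried lymph node RNA and 2 carried hepatocyte RNA. Other iWAT libraries below the lymph node cut held up to 683 CPM of its summed markers, beside 12.1 CPM in the lowest. Leaving out the 7 therefore does not remove all lymph node RNA. Summed fast muscle markers ran from 8.88 to 20892 CPM in iWAT, and no library was left out for them. The fat labels were checked against 14 adipocyte markers, whose sum lay between 7247 and 61837 CPM in fat and between 2288 and 3642 CPM in muscle. Some differences are also given without the libraries over these cuts. Differences given only with all libraries can move too when these are left out.

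In eWAT on chow, Cyp2e1 was among the most abundant transcripts of C57-nuclear fat. The C57n:C57mt libraries held 1520, 2266, 1010.3 and 1901 CPM, with a mean of 1674 ± 537 CPM (SD, n = 4). The C57n:C3Hmt libraries held 368, 3035, 1326 and 681 CPM, a mean of 1353 ± 1191 CPM (SD, n = 4). The lowest of these 8 values were in 3 of the epithelial libraries, at 368, 681 and 1010.3 CPM. The C3H-nuclear libraries were all lower. C3Hn:C3Hmt gave 364, 97.3 and 358 CPM (273 ± 152 CPM, SD, n = 3), and C3Hn:C57mt gave 18.3, 119, 82.8 and 16.9 CPM (59.3 ± 50.4 CPM, SD, n = 4). The highest C3H-nuclear library, at 364 CPM, lay just below the lowest C57-nuclear one, at 368 CPM.

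The eWAT classes stood further apart on the high-fat diet. C57n:C57mt libraries held 1407, 975, 726 and 322 CPM (857 ± 455 CPM, SD, n = 4), and C57n:C3Hmt libraries 2382, 1318 and 622 CPM (1440.5 ± 886 CPM, SD, n = 3). C3Hn:C3Hmt libraries held 64.6, 25.4, 25.1 and 28.0 CPM (35.8 ± 19.3 CPM, SD, n = 4), and the highest of them was the epithelial library. C3Hn:C57mt libraries held 14.8, 6.32 and 3.51 CPM (8.20 ± 5.86 CPM, SD, n = 3), the lowest fat levels in the series. Ordered by expression per kilobase among 17450 genes with a transcript length, Cyp2e1 had a median rank of 94 in C57-nuclear eWAT on this diet and of 3788 in C3H-nuclear eWAT.

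Inguinal fat gave the same order of nuclear genomes over a narrower range. On chow, C57n:C57mt libraries held 429, 998, 694 and 489 CPM (652 ± 257 CPM, SD, n = 4) and C57n:C3Hmt libraries 448, 520.3, 727 and 311 CPM (501 ± 173 CPM, SD, n = 4). C3Hn:C3Hmt libraries held 127, 144, 268 and 283 CPM (205 ± 81.3 CPM, SD, n = 4), and C3Hn:C57mt libraries 103, 123, 124 and 35.2 CPM (96.4 ± 42.0 CPM, SD, n = 4). All 8 C57-nuclear libraries were above all 8 C3H-nuclear ones. On the high-fat diet, C57n:C57mt libraries held 529, 510.2, 857 and 1025 CPM (730.4 ± 253 CPM, SD, n = 4) and C57n:C3Hmt libraries 1092, 673, 1318 and 840.1 CPM (981 ± 283 CPM, SD, n = 4). C3Hn:C3Hmt libraries held 160.2, 98.7 and 60.0 CPM (106 ± 50.5 CPM, SD, n = 3), and C3Hn:C57mt libraries 13.9, 14.0 and 20.8 CPM (16.2 ± 3.98 CPM, SD, n = 3). The library at 98.7 CPM was one of those with hepatocyte RNA. The one at 60.0 CPM carried lymph node RNA, at 3010.5 CPM of its summed markers, and was alone in its sequencing run.

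Muscle held the gene at a low level in every library. C57n:C57mt muscle gave 16.5, 19.2, 30.6 and 21.9 CPM (22.0 ± 6.12 CPM, SD, n = 4), and C57n:C3Hmt muscle 27.8, 25.8, 71.3 and 29.2 CPM (38.5 ± 21.9 CPM, SD, n = 4). C3Hn:C3Hmt muscle gave 7.06, 6.63, 13.9 and 17.04 CPM (11.2 ± 5.15 CPM, SD, n = 4), and C3Hn:C57mt muscle 9.90, 6.40, 4.83 and 7.48 CPM (7.15 ± 2.13 CPM, SD, n = 4). When the 20 groups were ordered by mean level, from 1674 CPM in C57n:C57mt eWAT on chow to 7.15 CPM in C3Hn:C57mt muscle, the libraries of each group overlapped those of the next, so no neighbouring pair in the order was separated by its spread.

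**Figure D1:**
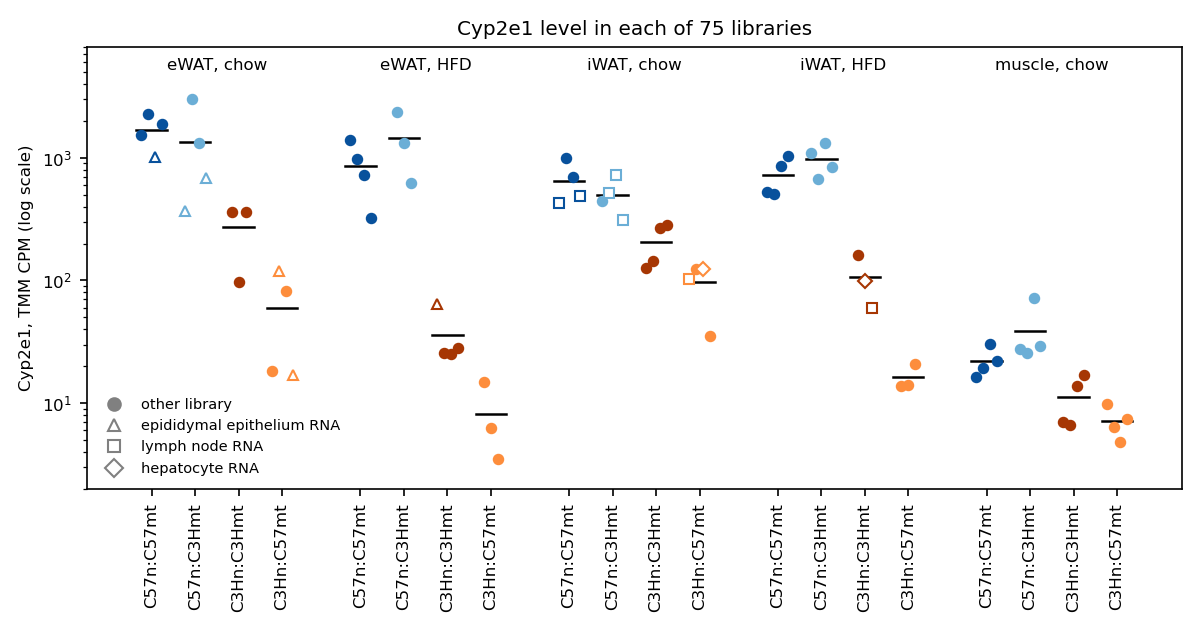
Cyp2e1 level (TMM CPM, log axis) in each of 75 libraries, by tissue, diet and genotype. Points are libraries, black lines are group means, and open symbols are libraries over the cut for epithelial, lymph node or hepatocyte RNA. In all 4 fat sets the C57-nuclear libraries (blue) lie above the C3H-nuclear ones (orange and brown), by the least in eWAT on chow, where 368 CPM and 364 CPM almost meet.

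Within fat, the widest differences of Cyp2e1 were between nuclear genomes. In eWAT on chow the C57 nucleus, averaged over both mitochondrial genomes, exceeded the C3H nucleus by 3.68 ± 0.60 on the log2 scale (SE, 8 against 7 libraries), which is 12.8-fold. In eWAT on the high-fat diet it was 6.00 ± 0.50 (SE, 7 against 7 libraries), or 64.0-fold. These groups did not overlap in either diet. In iWAT the difference was 2.07 ± 0.32 (SE, 8 against 8 libraries), or 4.21-fold, on chow and 4.36 ± 0.28 (SE, 8 against 6 libraries), or 20.5-fold, on the high-fat diet, again without overlap. Muscle showed 1.69 ± 0.28 (SE, 8 against 8 libraries), or 3.23-fold; 7 of the 8 C57-nuclear libraries were above all C3H-nuclear ones and the ranges overlapped through 1 library. Without the epithelial libraries the eWAT difference on chow was 4.34 ± 0.70 (SE, 20.3-fold). In iWAT on the high-fat diet it was 4.36 ± 0.40 (SE) without the hepatocyte library and 4.18 ± 0.26 (SE) without the lymph node library. The iWAT difference on chow was 2.28 without the lymph node libraries. On chow the nucleus cannot be told apart from the sequencing lane in iWAT and muscle, where the titles give each class its own lane. In eWAT on chow only 1 C57-nuclear library shared the lane of the C3H-nuclear ones. This holds for every gene compared between nuclei on chow.

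The nuclear contrast was present with either mitochondrial genome. With C57 mitochondria it was 5.26 ± 0.77 in eWAT on chow, 6.75 ± 0.75 in eWAT on the high-fat diet, 2.84 ± 0.51 in iWAT on chow, 5.45 ± 0.32 in iWAT on the high-fat diet and 1.62 ± 0.29 in muscle (log2 ± SE). With C3H mitochondria the same 5 differences were 2.10 ± 0.91, 5.25 ± 0.65, 1.31 ± 0.39, 3.27 ± 0.46 and 1.76 ± 0.48. None of these 10 pairs of groups overlapped. With C3H mitochondria the eWAT value on chow was 3.10 ± 0.87 (8.60-fold) without the epithelial libraries. The iWAT value on the high-fat diet was 2.92 ± 0.41 without the lymph node library. With C57 mitochondria the iWAT value on chow was 3.35 ± 0.66 without the lymph node libraries. In eWAT on the high-fat diet with C57 mitochondria the difference of the group means of log2 CPM corresponded to 108-fold, the widest of the 10. Among all genes fitted with edgeR in eWAT on that diet, Cyp2e1 was 100th of 17781 by absolute log2 difference between nuclei, and it was 145th of 16888 in iWAT.

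Bulk tissue does not tell fewer cells of a type from less RNA per cell, so markers are set beside these differences. Adiponectin (Adipoq), a hormone made by fat cells, differed between nuclei by -0.29 ± 0.55 in eWAT and -0.24 ± 0.20 in iWAT on chow, and by 1.09 ± 0.18 in eWAT and 1.03 ± 0.33 in iWAT on the high-fat diet (log2 C57n minus C3Hn ± SE). Relative to the mean of the 14 adipocyte markers the nuclear difference of Cyp2e1 on the high-fat diet was 5.02 in eWAT and 3.55 in iWAT. Of the 14 markers, 3 were called higher with the C57 nucleus in eWAT on that diet and none lower, when 5.55% of all genes were higher; in iWAT 4 were higher and none lower, when 8.26% were higher. In muscle Adipoq differed by 0.56 ± 0.26, and 4 of 13 adipocyte markers were called higher and none lower, when 17.1% of all genes were higher. Macrophage markers went the other way in eWAT: 5 of 9 were lower with the C57 nucleus on each diet, when 7.09% of all genes were lower on chow and 7.52% on the high-fat diet. In iWAT 3 were lower and 1 higher on chow (6% and 5.71% of all genes), and 5 lower and 1 higher on the high-fat diet (8.03% and 8.26%). Those lower in eWAT included the elastase Mmp12 (-3.804 on the log2 scale on the high-fat diet) and the integrin Itgax (-2.89). The summed macrophage markers on that diet had a median of 952 CPM in C57-nuclear and 3342 CPM in C3H-nuclear eWAT. The part of these shifts in the Cyp2e1 difference was not tested.

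Expressed per 100 CPM of Adipoq, a ratio that compares libraries and not the 2 genes, Cyp2e1 had a median of 55.2 in C57-nuclear and 2.10 in C3H-nuclear eWAT on chow. The eWAT medians on the high-fat diet were 23.8 and 0.849, and the lowest C57-nuclear library (11.1) was above the highest C3H-nuclear one (2.96). In iWAT the medians were 28.1 and 5.45 on chow and 23.9 and 2.54 on the high-fat diet, without overlap of the classes. On chow in eWAT 1 C3H-nuclear library, an epithelial one with 390.0 CPM of Adipoq, reached 30.6, and the C57-nuclear range began at 40.3.

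**Figure D2:**
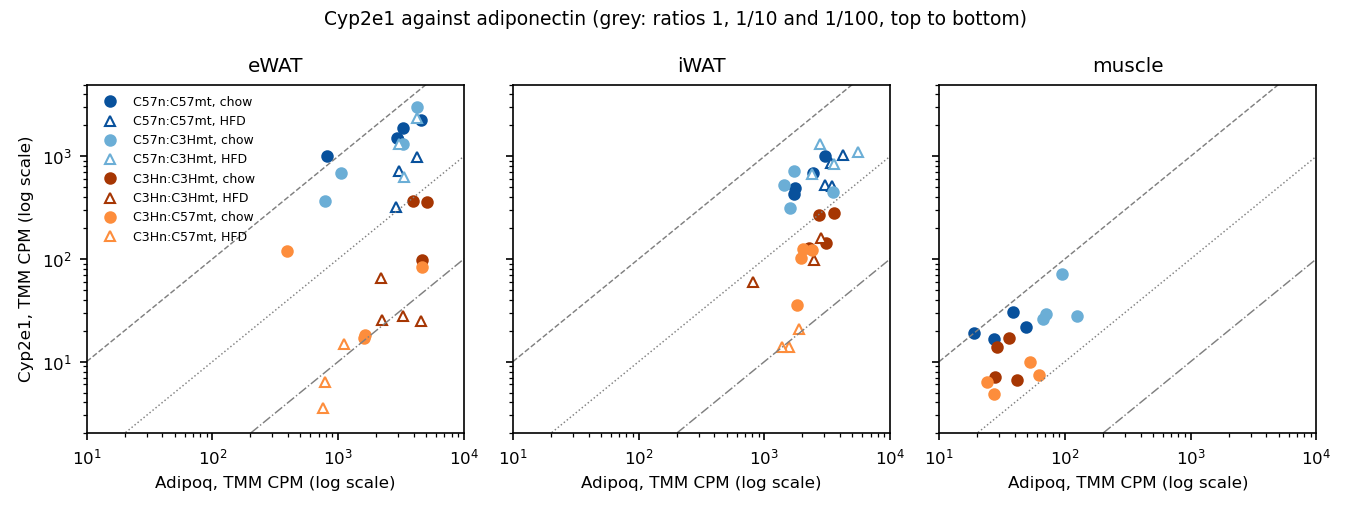
Cyp2e1 against adiponectin (Adipoq) in each library, both as TMM CPM on log axes, in eWAT, iWAT and muscle; colours are genotypes, filled circles chow and open triangles high-fat diet, and grey lines join equal ratios. The Adipoq ranges of the nuclear classes overlap in each fat depot on chow, while Cyp2e1 is higher with the C57 nucleus; all muscle libraries lie at 125 CPM of Adipoq or less.

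With the C3H nucleus the exchange line had less Cyp2e1 than its wild type in all 5 comparisons, and with the C57 nucleus the sign varied. C3Hn:C57mt minus C3Hn:C3Hmt was -2.23 ± 0.68 in eWAT on the high-fat diet, -2.62 ± 0.45 in iWAT on the high-fat diet and -1.16 ± 0.53 in iWAT on chow (log2 ± SE), and the groups did not overlap in any of these 3 comparisons. In eWAT on chow the difference was -2.48 ± 0.96 and in muscle -0.56 ± 0.40, with overlap in both. With the C57 nucleus, C57n:C3Hmt differed from C57n:C57mt by -0.68 ± 0.70 in eWAT and -0.37 ± 0.37 in iWAT on chow, by 0.73 ± 0.72 in eWAT and 0.44 ± 0.33 in iWAT on the high-fat diet and by 0.70 ± 0.39 in muscle, and all 5 pairs overlapped. The eWAT value on chow was 0.10 ± 0.62 without the epithelial libraries, so its sign rests on them, and the iWAT value on chow was -0.89 ± 0.26 without the lymph node libraries. Leaving out 1 library moved several of these differences by over 1.5 times: with the C57 nucleus they ran from -1.21 to -0.20 in eWAT and -0.57 to -0.14 in iWAT on chow and from 0.27 to 1.24 in eWAT on the high-fat diet, and with the C3H nucleus from -1.36 to -0.73 in iWAT on chow. In eWAT on the high-fat diet Adipoq was also lower in C3Hn:C57mt, with a log2 difference of -1.74 ± 0.31 (SE), and the Cyp2e1 difference relative to the adipocyte markers was -1.18. In iWAT on the high-fat diet Adipoq differed by -0.15 ± 0.59, beside the Cyp2e1 difference of -2.62. That Cyp2e1 difference was -2.98 ± 0.40 without the lymph node library.

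Few genes were called between exchange lines and wild types by edgeR's quasi-likelihood test. Of 17781 genes tested in eWAT, 0.0112% were called (adjusted p under 0.05) for C3Hn:C57mt on the high-fat diet, and of 13735 genes in muscle 0.00728% for C3Hn:C57mt; the other 8 comparisons called 0%. Of the 142 other genes listed here as P450 enzymes, their electron donors, haem synthesis, ethanol and ketone enzymes, liver regulators of Cyp2e1 and peroxide removal, 1 was called in the 10 comparisons together. It was thioredoxin reductase Txnrd1, which was higher in C3Hn:C57mt than in C3Hn:C3Hmt eWAT on the high-fat diet by 1.21 ± 0.18 (log2 ± SE, edgeR adjusted p = 0.00986). Leaving out the epithelial libraries gave 8 calls, and leaving out 1 library gave 0 to 6. The count was 0 without C3Hn:C3Hmt replicate 1 or 3 or C3Hn:C57mt replicate 2 or 3 in eWAT on the high-fat diet, and 6 without C57n:C3Hmt replicate 3 in eWAT on chow. DESeq2 called 24 over the same 10 comparisons, and between 3 and 24 of the tested list genes had an unadjusted edgeR p under 0.05 in each. No share of all genes was counted for DESeq2 or for unadjusted p, so these counts stand without a comparison.

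**Figure D3:**
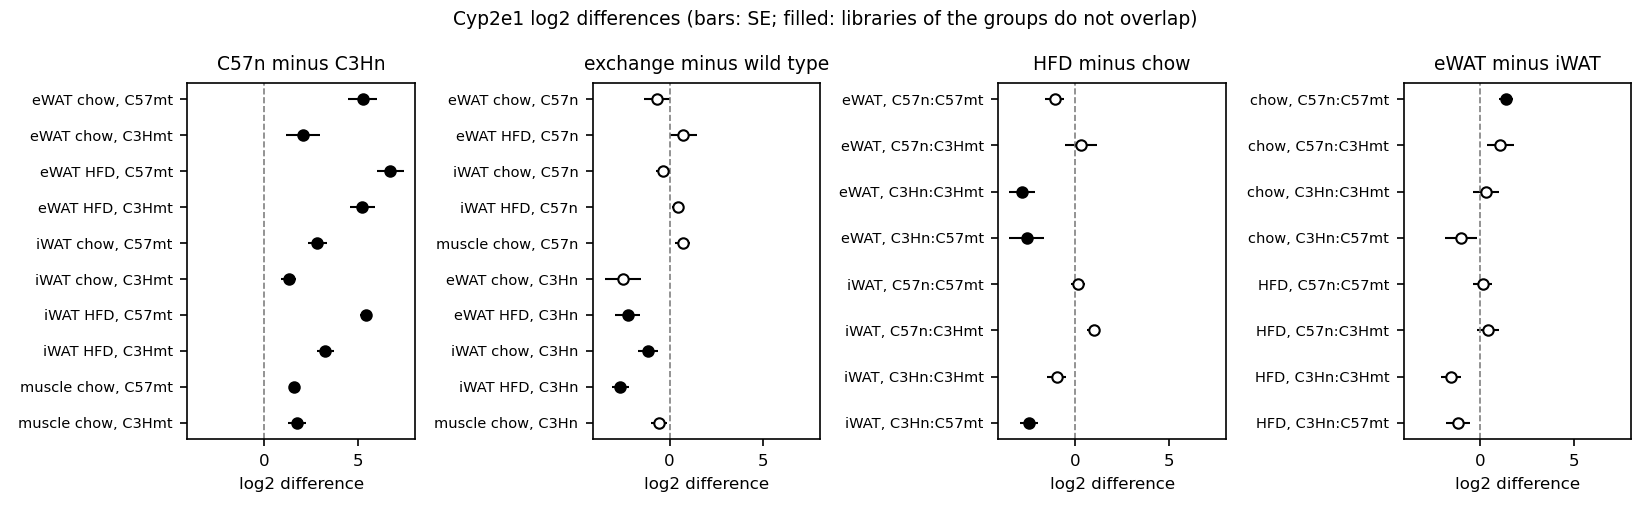
Cyp2e1 log2 differences between group means, with SE bars, for nuclear genome, mitochondrial exchange, diet and depot; filled points are pairs of groups whose libraries do not overlap. All 10 nuclear differences are positive and filled, and the mitochondrial differences with the C3H nucleus are all below 0, down to -2.62.

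Cyp2e1 was lower on the high-fat diet in C3H-nuclear fat, and in C57-nuclear fat the sign of the diet difference varied. In eWAT, C3Hn:C3Hmt differed on the high-fat diet by -2.83 ± 0.71 and C3Hn:C57mt by -2.58 ± 0.94 (log2 ± SE), and neither pair of groups overlapped. In iWAT, C3Hn:C57mt differed by -2.43 ± 0.48 without overlap, and C3Hn:C3Hmt by -0.97 ± 0.51 with overlap. In C57-nuclear eWAT the difference was -1.09 ± 0.52 with C57 mitochondria and 0.32 ± 0.86 with C3H mitochondria, both with overlap. Without the epithelial libraries the first of these was -1.31 ± 0.48 and the second turned to -0.68 ± 0.82. In C57-nuclear iWAT the difference was 0.18 ± 0.37 with C57 mitochondria, which turned to -0.25 ± 0.36 without the lymph node libraries, and 0.99 ± 0.33 with C3H mitochondria, where 3 of 4 high-fat libraries were above all chow libraries. Averaged over the genotypes the diet difference was -1.55 ± 0.39 in eWAT and -0.56 ± 0.21 in iWAT. The eWAT average was -1.91 ± 0.42 without the epithelial libraries.

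Diet cannot be told apart from sequencing run, since all chow libraries came from 1 run and the high-fat libraries from 3 others. The G+C share of the aligned bases ran from 48.98% to 50.16% in eWAT on chow and from 48.01% to 49.56% on the high-fat diet, and from 47.73% to 49.98% and 46.39% to 48.61% in iWAT. With each library's trend on G+C content and length removed, the diet difference of Cyp2e1 was -1.63 ± 0.40 in eWAT and -0.69 ± 0.21 in iWAT (log2 ± SE). Adipoq differed by diet by -0.005 ± 0.289 in eWAT and 0.115 ± 0.190 in iWAT. All 9 macrophage markers tested were called higher in eWAT on the high-fat diet, when 18.4% of all genes were higher. In iWAT 8 of 9 were, when 21.4% of all genes were higher. The part of these markers in the Cyp2e1 difference was not tested.

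The order of the depots differed between nuclear classes and diets, and that difference was not tested. On chow, C57-nuclear eWAT was above C57-nuclear iWAT by 1.22 ± 0.40 (log2 ± SE), or by 1.83 ± 0.36 without the epithelial libraries, and C3H-nuclear depots differed by -0.39 ± 0.55. On the high-fat diet the C57-nuclear difference was 0.25 ± 0.40 and the C3H-nuclear one -1.39 ± 0.41, with eWAT the lower. Of these comparisons by genotype, only C57n:C57mt on chow had depots without overlap (1.38 ± 0.37, 2.60-fold). In 20 animals both depots were sequenced. All 4 C57-nuclear animals on chow had more Cyp2e1 in eWAT, by 1.18 to 2.54 on the log2 scale (mean 1.88 ± 0.56, SD), and 2 of 4 C3H-nuclear animals did (mean -0.49 ± 0.96, SD). On the high-fat diet 4 of 6 C57-nuclear animals had more in eWAT (mean 0.38 ± 0.63, SD) and 1 of 6 C3H-nuclear animals did (mean -1.32 ± 1.0, SD); that 1 animal had the epithelial eWAT library.

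**Figure D4:**
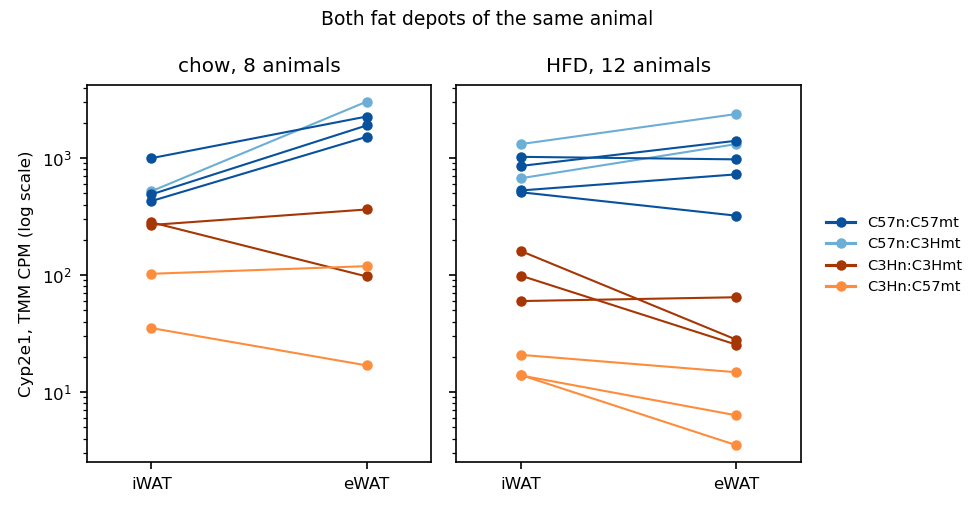
Cyp2e1 (TMM CPM, log axis) in iWAT and eWAT of the 8 chow and 12 high-fat-diet animals with both depots sequenced; each line is an animal, coloured by genotype. The 4 C57-nuclear chow animals all rise from iWAT to eWAT, and 5 of 6 C3H-nuclear high-fat-diet animals fall.

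Muscle held 23.2-fold less Cyp2e1 than eWAT on chow (log2 difference -4.53 ± 0.33, SE, 16 against 15 libraries), and -5.77 by library totals with no scaling factor. Some animals gave both tissues, and the SE treats all libraries as independent. The groups overlapped, because 8 of the 16 muscle libraries lay above the lowest eWAT library. The Adipoq difference was -5.76 ± 0.30 (log2 ± SE), and relative to the adipocyte markers the Cyp2e1 difference was 0.22 ± 0.34 with the sign reversed. Per 100 CPM of Adipoq the median was 52.1 in C57-nuclear muscle, beside 55.2 in C57-nuclear eWAT, and 22.2 in C3H-nuclear muscle, beside 2.10 in C3H-nuclear eWAT. Muscle libraries held 18.8 to 125 CPM of Adipoq. Adipoq was higher in C57n:C3Hmt than in C57n:C57mt muscle by 1.46 ± 0.37, beside 0.70 ± 0.39 for Cyp2e1, and the latter was 0.004 relative to the adipocyte markers. Whether fat cells between the muscle fibres carried this RNA was not tested.

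Within its enzyme family, compared per kilobase of transcript, Cyp2e1 was the most abundant of 79 P450 genes with a known length in 7 of the 8 fat classes formed by depot, diet and nucleus. Its mean was 828 ± 477 CPM per kb (SD, n = 8) in C57-nuclear eWAT on chow, which was 83.8% of the summed P450 level. Second there was Cyp4v3, a fatty acid hydroxylase, at 23.1 ± 13.5 CPM per kb (SD, n = 8). In C3H-nuclear eWAT on the high-fat diet Cyp2e1 ranked 5, at 13.1 CPM per kb and 8.14% of the sum, behind Cyp4v3 at 38.2 ± 12.8, Cyp4b1 at 20.8 ± 3.799, the sterol 27-hydroxylase Cyp27a1 at 15.4 ± 4.65 and the oestrogen and arachidonate hydroxylase Cyp1b1 at 14.1 ± 6.63 CPM per kb (SD, n = 7). In C3H-nuclear iWAT on the high-fat diet Cyp2e1, at 33.5 ± 32.2, and Cyp4v3, at 33.4 ± 12.2 CPM per kb (SD, n = 6), were level. In muscle Cyp27a1 led and Cyp2e1 was second in both nuclear classes.

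**Figure D5:**
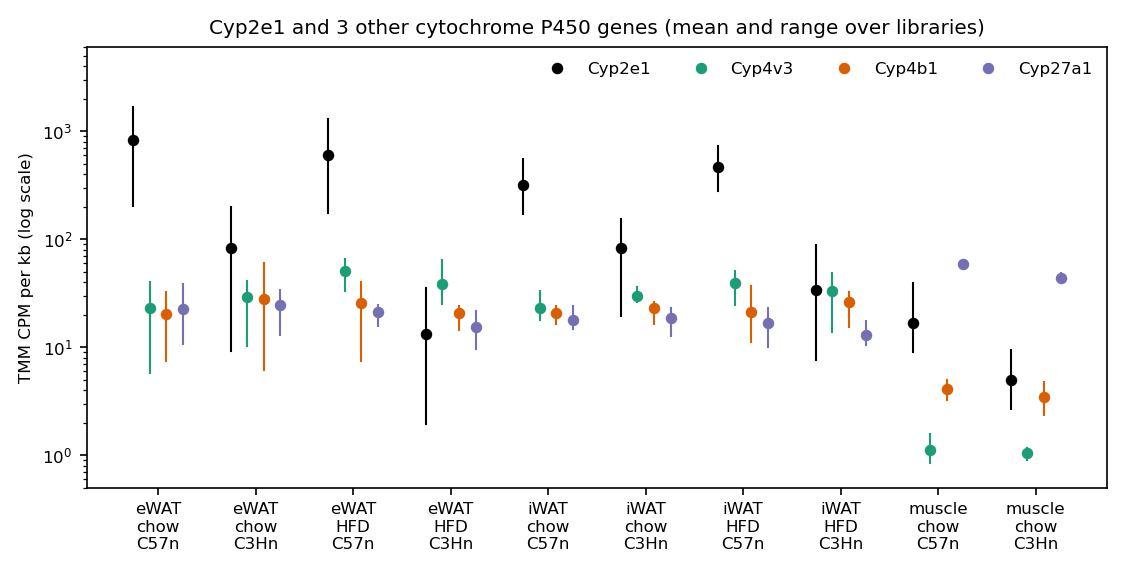
Mean (point) and range (line) over libraries of the length-scaled level, in TMM CPM per kb on a log axis, of Cyp2e1 and 3 other P450 genes in the 10 classes of tissue, diet and nucleus. Cyp2e1 spans 828 to 13.1 CPM per kb among the fat means, while Cyp4v3, Cyp4b1 and Cyp27a1 stay between 12.9 and 50.2.

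Of the 45 other P450 genes tested in eWAT, 6 were higher and 5 lower with the C57 nucleus on chow, and 4 were higher and 2 lower on the high-fat diet. Of 46 in iWAT, 3 were higher and 5 lower on chow and 1 was higher and 3 lower on the high-fat diet; of 18 in muscle, 5 were higher and 3 lower. Of the 142 listed genes, 104 passed the filter on low counts in each fat depot and 74 in muscle. In eWAT on chow, 25 were called between nuclei, 10 higher and 15 lower with the C57 nucleus, when 15.1% of all genes were called (7.98% higher, 7.09% lower). On the high-fat diet in eWAT 17 were called, 10 higher and 7 lower, against 13.1% of all genes (5.55% higher, 7.52% lower). In iWAT 21 were called on chow, 9 higher and 12 lower, against 11.7% (5.71% and 6%), and 20 on the high-fat diet, 14 higher and 6 lower, against 16.3% (8.26% and 8.03%). In muscle 36 were called, 19 higher and 17 lower, against 33.6% (17.1% and 16.5%). The median log2 difference of the tested list genes lay between -0.12 and 0.12 in these 5 comparisons, beside medians of all genes between -0.04 and 0.07. The eWAT counts rest on single libraries: without 1 of 6 libraries on chow they were 12 to 16, and without 1 of 4 on the high-fat diet 10 or 11. DESeq2 called 33 in eWAT on the high-fat diet, and 7 were called in iWAT on chow without the lymph node libraries.

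Among the P450 enzymes, Cyp4f18, a leukotriene hydroxylase of white blood cells, was higher with the C57 nucleus in eWAT by 2.87 ± 0.40 on chow (log2 ± SE, edgeR adjusted p = 3.09e-05) and 4.37 ± 0.44 on the high-fat diet (adjusted p = 2.46e-07), and in muscle by 2.58 ± 0.35 (adjusted p = 2.57e-05). Its libraries on the high-fat diet ran from 4.42 to 18.3 CPM with the C57 nucleus and from 0.14 to 0.997 CPM with the C3H nucleus, without overlap. Cyp2f2, known from the airway, was higher with the C57 nucleus in iWAT by 2.56 ± 0.35 on chow (adjusted p = 9.76e-06) and 2.78 ± 0.40 on the high-fat diet (adjusted p = 2.12e-05). Cyp2b10, a phenobarbital-inducible enzyme, was higher in eWAT on the high-fat diet by 2.60 ± 0.83 (adjusted p = 0.0389), at 2.09 CPM or less in every library. Against these, Cyp2c70, a bile acid hydroxylase, was lower with the C57 nucleus by -3.06 ± 0.79 in eWAT on chow (adjusted p = 0.013), by -3.46 ± 0.66 in iWAT on chow (adjusted p = 0.000707) and by -2.09 ± 0.64 in iWAT on the high-fat diet (adjusted p = 0.0256). Cyp2b23 was lower in iWAT by -3.04 ± 0.69 on chow and -1.96 ± 0.66 on the high-fat diet (adjusted p = 0.00377 and 0.044), and Cyp4f39, a skin lipid hydroxylase, by -1.68 ± 0.46 in iWAT on chow and -1.85 ± 0.33 in eWAT on the high-fat diet (adjusted p = 0.017 and 0.00054), while in muscle it was higher by 0.87 ± 0.29 (adjusted p = 0.031). Some members of the Cyp2b, Cyp2c and Cyp4f subfamilies are near-identical in sequence, and how shared reads were split between them can move their counts. Several of these levels were also near the floor. Cyp2b23 stayed at 0.582 CPM or less in iWAT, and Cyp4f18 at 1.70 CPM or less in muscle. The Cyp2c70 medians in the fat classes of depot, diet and nucleus lay between 0.127 and 1.89 CPM.

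Of the genes of electron transfer and haem, 16 were tested between nuclei. In eWAT on chow none was higher and 4 were lower with the C57 nucleus (7.98% and 7.09% of all genes). In iWAT on chow 1 was higher and 2 lower (5.71% and 6%). In muscle 4 were higher and 7 lower (17.1% and 16.5%). On the high-fat diet 1 was higher and 2 lower in eWAT (5.55% and 7.52%). In iWAT on that diet 3 were higher and 1 lower (8.26% and 8.03%). Cyb5, cytochrome b5, was higher on the high-fat diet by 0.98 ± 0.27 in eWAT (edgeR adjusted p = 0.0187) and 1.10 ± 0.19 in iWAT (adjusted p = 0.000163). Por was higher by 0.90 ± 0.23 in iWAT (adjusted p = 0.00736), and in eWAT its 0.73 ± 0.27 did not pass (adjusted p = 0.0847). On chow neither passed in either depot, with differences between -0.05 and 0.16. The haem enzyme Alad, which joins aminolevulinate into porphobilinogen, was lower with the C57 nucleus in all 5 comparisons, most in muscle (-1.97 ± 0.05, adjusted p = 9.58e-15). Alas1, the first step of haem synthesis, passed in muscle (-0.38 ± 0.05, adjusted p = 1.42e-05) and in neither fat depot.

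Some of the enzymes beside CYP2E1 in ethanol handling were higher with the C57 nucleus. Adh1, alcohol dehydrogenase, was higher in iWAT by 0.85 ± 0.14 on chow (edgeR adjusted p = 0.000157) and by 1.38 ± 0.16 on the high-fat diet (adjusted p = 8.32e-07), and in eWAT by 1.31 ± 0.26 on the high-fat diet (adjusted p = 0.00127), while its 0.26 ± 0.24 in eWAT on chow did not pass (adjusted p = 0.478). Adh1 libraries in iWAT on the high-fat diet ran from 105 to 176 CPM with the C57 nucleus and from 28.5 to 74.1 CPM with the C3H nucleus. Aldh2, which clears acetaldehyde, was higher on the high-fat diet by 0.66 ± 0.20 in eWAT (adjusted p = 0.0254) and 0.71 ± 0.17 in iWAT (adjusted p = 0.00427), and on chow it passed in neither depot (adjusted p = 0.195 and 0.712). Of the 15 tested genes of ethanol, aldehyde and ketone handling, 3 were higher and none lower in eWAT on either diet, when 7.98% of all genes were higher on chow and 5.55% on the high-fat diet. In iWAT 3 were higher and 1 lower on chow (5.71% and 6% of all genes), and 6 higher and 1 lower on the high-fat diet (8.26% and 8.03%). In muscle 2 of 14 were higher and 2, Bdh1 and Akr1a4, lower (17.1% and 16.5%). Adh7, another alcohol dehydrogenase, was higher in muscle by 2.80 ± 0.40 (adjusted p = 3.94e-05), where no library exceeded 1.68 CPM.

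Of the genes that remove peroxides and reactive aldehydes, 18 were tested between nuclei. In eWAT on chow 1 was higher and 6 lower with the C57 nucleus (7.98% and 7.09% of all genes). In iWAT on chow 1 was higher and 4 lower (5.71% and 6%). On the high-fat diet 2 were higher and 2 lower in eWAT (5.55% and 7.52%). In iWAT on that diet 4 were higher and 1 lower (8.26% and 8.03%). In muscle 6 were higher and 5 lower (17.1% and 16.5%). The plasma glutathione peroxidase Gpx3 was higher with the C57 nucleus in all 5 nuclear comparisons. Its differences in eWAT and iWAT on the high-fat diet were 1.52 ± 0.39 and 1.54 ± 0.29 (edgeR adjusted p = 0.0106 and 0.000448). Gsta4, the transferase that conjugates 4-hydroxynonenal, was lower on chow in eWAT by -1.74 ± 0.42 (adjusted p = 0.00781). Hmox1, which degrades haem, was lower in eWAT on the high-fat diet by -1.36 ± 0.39 (adjusted p = 0.0228). Catalase (Cat) passed in none of the 5 nuclear comparisons. Nfe2l2, the oxidative stress regulator NRF2, was lower in eWAT on chow by -0.37 ± 0.10 (adjusted p = 0.0205).

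Few of the liver regulators of Cyp2e1 were called between nuclei. Hnf4a, a nuclear receptor of liver and gut, differed between nuclei by 3.06 ± 1.41 on chow and 2.07 ± 1.37 on the high-fat diet in eWAT (edgeR adjusted p = 0.135 and 0.355) and by -4.67 ± 2.42 and -0.81 ± 1.40 in iWAT (adjusted p = 0.24 and 0.73). Its medians were at most 0.443 CPM in the fat classes of depot, diet and nucleus. Ctnnb1, beta-catenin, was lower with the C57 nucleus in eWAT on the high-fat diet by -0.37 ± 0.10 (adjusted p = 0.0187). Of the 10 regulators tested in eWAT on chow, edgeR and DESeq2 called none, and 2 had an unadjusted edgeR p under 0.05, when 15.1% of all genes were called. Ctnnb1 was the 1 of 10 called in eWAT on the high-fat diet (13.1% of all genes), the xenobiotic receptor Ahr, at 0.72 ± 0.14, the 1 of 9 in iWAT on chow (adjusted p = 0.000735, 11.7%), and Rxra and Insr, both higher, the 2 of 8 in muscle (33.6%). In iWAT on the high-fat diet edgeR and DESeq2 called none of 9, and 1 had an unadjusted edgeR p under 0.05.

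In eWAT 35 of the 104 listed genes were called between diets, 12 higher and 23 lower on the high-fat diet, against 41% of all genes (18.4% higher, 22.7% lower). Por fell by 0.63 ± 0.19 on the log2 scale (edgeR adjusted p = 0.0121), Adh1 by 0.88 ± 0.18 (adjusted p = 0.000555) and Aldh2 by 0.54 ± 0.14 (adjusted p = 0.00349). The leading falls were of Cyp2j13, Cyp4f15 and Cyp2f2, by 2.89, 2.87 and 2.70. Cyp2j13 and Cyp4f15 had eWAT medians of at most 0.761 CPM in each class of diet and nucleus. The epididymal epithelium markers fell with these genes in 9 of 16 cases, and the part of the markers was not tested. In iWAT 44 of 104 were called, 27 higher and 17 lower, against 37.6% (21.4% and 16.2%), and 17 with the G+C and length trend removed. The largest rises there were of the hepatic drug-metabolising enzymes Cyp2c29 (4.78 ± 1.21, adjusted p = 0.00444), Cyp2c50 (4.67 ± 1.3, adjusted p = 0.0103), Cyp2d9 (3.93 ± 1.18, adjusted p = 0.0118), Cyp2c67 (3.69 ± 1.19, adjusted p = 0.0201) and Cyp3a11 (3.57 ± 1.21, adjusted p = 0.0244), beside 9 of 12 hepatocyte markers. These enzymes had medians of at most 0.420 CPM in iWAT in each class of diet and nucleus. Without the 2 hepatocyte-RNA libraries, left out after the data were seen, Cyp2c29 was still higher (4.86 ± 1.07, adjusted p = 0.0023), and so was the hepatocyte marker Cps1 (4.86 ± 0.95, adjusted p = 0.00066). The diet difference of Cyp2e1 in iWAT was -0.56 with and -0.52 ± 0.27 without these libraries, a mean over nuclei that differed in sign.

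The interaction of diet with nucleus was called for 0.716% of genes in iWAT and 0% in eWAT. In iWAT it took in 3 listed genes: Cyb5 (1.16 ± 0.25, edgeR adjusted p = 0.0383) and the glutathione transferase Gstm1 (1.07 ± 0.23, adjusted p = 0.0382), whose diet differences were more positive with the C57 nucleus, and the xenobiotic receptor Ahr (-0.85 ± 0.20, adjusted p = 0.0486), whose diet difference was more negative. Without the lymph node libraries none of the 3 was called. In eWAT edgeR called none of the listed genes, DESeq2 called 11, and 27 had an unadjusted edgeR p under 0.05. The share of all genes was counted for the edgeR calls only. The diet differences of Cyp2e1 for each nucleus were -1.70 ± 0.35 with C3H and 0.58 ± 0.25 with C57 in iWAT and -2.71 ± 0.59 and -0.39 ± 0.50 in eWAT (log2 HFD minus chow ± SE); without the epithelial libraries the eWAT values were -2.82 ± 0.69 and -0.998 ± 0.475.

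Between depots 34 of 111 tested list genes were called on chow, 29 higher and 5 lower in eWAT, against 33% of all genes (18.8% and 14.3%), and 27 on the high-fat diet, 17 higher and 10 lower, against 22.8% (9.99% and 12.8%). The largest on chow were Cyp17a1 (5.11 ± 1.40, edgeR adjusted p = 0.00391) and Hnf4a (5.03 ± 1.31, adjusted p = 0.0027), beside 12 of 16 epididymal epithelium markers called higher. On chow the count was 11 without the lymph node libraries and 18 with the animal as a block, over the animals with both depots. Cyp2s1, an epithelial P450, led on the high-fat diet, at 2.88 ± 0.38 higher in eWAT (adjusted p = 1.54e-07). In muscle against eWAT 91 of 105 were called, 22 higher and 69 lower, against 82.6% (32.8% and 49.7%); Por was lower by -2.92 ± 0.18 (adjusted p = 6.86e-18) and Cyb5 by -3.16 ± 0.15 (adjusted p = 3.09e-21).

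The nearest counted neighbours of Cyp2e1 were low in most libraries. Syce1, a meiosis gene 2.3 kb downstream on the minus strand, had medians of at most 0.446 CPM in the 10 classes of tissue, diet and nucleus, and it reached 69.6 CPM in 1 epithelial library of C57-nuclear eWAT on chow. It was called higher with the C57 nucleus in eWAT on chow (3.20 ± 1.02, edgeR adjusted p = 0.0379) and in neither depot on the high-fat diet (adjusted p = 0.798 in eWAT and 0.228 in iWAT). The annotated gene 1190003J15Rik, 60.0 kb downstream, was called in none of the 4 nuclear comparisons in fat. On the other side 5830411N06Rik, 463.9 kb upstream, passed the count filter within iWAT and not within eWAT or muscle, and was not called between nuclei there (adjusted p = 0.0648 on chow and 0.935 on the high-fat diet). The olfactory receptor genes Olfr536 and Olfr60 and the secretoglobin Scgb1c1 passed the filter in no fit.

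Over the means of the 16 fat groups, the genes whose log2 level was most like that of Cyp2e1 were found by Pearson's r among 11114 genes with a mean of at least 5 CPM. The closest were 1810022C23Rik (r = 0.972), Rabl4, a small GTPase of the ciliary transport complex (0.97), Bpnt1, a bisphosphate nucleotidase (0.964), and Ppm1m, a protein phosphatase (0.958). Next came Gcdh, glutaryl-CoA dehydrogenase (0.945), the hydrolases Abhd14a (0.945) and Abhd14b (0.943) and the adaptor subunit Ap4b1 (0.943); 2 further places in the first 10 went to transcripts without a gene symbol. These r values describe 16 means that share libraries, depth and the nuclear split, and carry no p. The nuclear differences of these genes were smaller than that of Cyp2e1: in eWAT on the high-fat diet 1810022C23Rik differed by 3.75, Abhd14b by 1.71, Ppm1m by 1.52, Bpnt1 by 1.24 and Ap4b1 by 0.64 on the log2 scale, beside 6.00 for Cyp2e1. The measures are not the same: theirs takes the mean over all libraries of a nucleus, and that of Cyp2e1 averages the group means. Ppm1m, Abhd14a and Abhd14b lie on chromosome 9, and Bpnt1 on chromosome 1.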

How the data were processed

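Libraries were sequenced on an Illumina HiSeq instrument, per the series' design text, and mapped by a service provider's proprietary algorithm. RSEM, DESeq2 1.10.1 and the mm9 build are named in the submitters' processing notes. The deposited values are RSEM expected counts per gene, in 1 table per diet (22423 genes for chow, 21983 for the high-fat diet, 21625 in both); a gene missing from 1 table was set to 0. How reads shared between similar genes were split, and which strand setting was used, was not given in any source used here. The mm9 reference comes from C57BL/6J mice, and whether reads of the C3H nuclear genome align less often was not tested.

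Here expected counts were rounded and normalized by TMM in edgeR 4.0.16 (R 4.3.3). Genes were kept by filterByExpr (minimum count 10, total 15) and tested with edgeR's quasi-likelihood test within a tissue, with all its groups in the fit; the depots were compared in a fit of both, and muscle against eWAT in a fit of all chow libraries. P-values were adjusted by the Benjamini-Hochberg method over all genes of a fit, and genes under 0.05 were called. Shares of all genes are given for these calls alone, and not for DESeq2, unadjusted p or fits without some libraries. Cyp2e1 itself was not tested: its log2 differences (prior count 2) carry an SE from the variance within each group. Each library's G+C percent of transcriptome-aligned bases is a deposited value of the sequencing provider, per the file headers. Gene length and G+C content came from the longest protein-coding GENCODE transcript on mm9 and were known for 84.1% of genes tested in eWAT and 84% in iWAT. The tests were tried on simulated data.

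Libraries were grouped by the genotype, diet and tissue in the labels. The 20 animals sequenced in both depots carry 1 number in both titles, which is where the pairing comes from; over 10966 genes the deviations of an animal's depots from their group means correlated with a median r of 0.257 (-0.134 to 0.65). Some chow animals also gave both muscle and eWAT. Apart from the alternative with the animal as a block, the fits between tissues treat all libraries as independent. The gene and the lists were chosen with earlier results of these data known. Genes named are Cyp2e1, the 10 most like it, the 3 nearest measured genes on each side, the 5 called list genes with the largest change in each main comparison and 9 defining list members, of which 1 is not reported here; other list genes, such as Txnrd1, Ctnnb1, Gstm1 and Ahr, were named after their values were seen. Alternatives were DESeq2 1.42.0, no count filter, other scalings, a prior count of 0.5, a G+C and length correction, run as a covariate, the animal as a block, leaving out libraries with RNA of other cell types, and leaving out each library (each replicate number at once between tissues).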

Additional observations from a re-analysis of the deposited data

Results flagged for a closer look

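In 15 groups of 4 libraries, 2 held a library whose Cyp2e1 level lay far from the other 3, where chance alone marks about 1 group in 20. In C3Hn:C3Hmt eWAT on the high-fat diet replicate 1 held 64.6 CPM, with a gap of 0.926 of the group's range to its nearest neighbour, and this library also carried epididymal epithelium RNA. In C57n:C3Hmt muscle replicate 3 held 71.3 CPM, with a gap of 0.926 of the range.

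The diet difference in iWAT differed between nuclei, by edgeR's interaction term, for 3 of the listed genes: cytochrome b5 Cyb5 by 1.16 ± 0.25 (log2 ± SE, adjusted p = 0.0383), the glutathione transferase Gstm1 by 1.07 ± 0.23 (adjusted p = 0.0382) and the xenobiotic receptor Ahr by -0.85 ± 0.20 (adjusted p = 0.0486). Without the lymph node libraries 0 listed genes were called for this interaction.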

How the results depend on the processing

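Of 126 alternative values of the Cyp2e1 differences, 120 moved by less than 1 SD of the libraries; among them, C57n:C3Hmt minus C57n:C57mt in eWAT on chow changed sign, from -0.68 to 0.10 without the epithelial libraries. Relative to the adipocyte markers the nuclear difference on the high-fat diet was 5.02 in eWAT and 3.55 in iWAT, the exchange difference was -1.18 in C3H-nuclear eWAT on the high-fat diet and 0.004 in C57-nuclear muscle, and muscle minus eWAT turned to 0.219. Muscle minus eWAT was -5.77 by library totals. Leaving out each library kept the sign of all 20 differences, though not the size of the exchange differences: these ran from -1.21 to -0.20 in C57-nuclear eWAT on chow and from 0.27 to 1.24 on the high-fat diet. The nuclear difference ran from 3.37 to 3.93 in eWAT and 1.86 to 2.18 in iWAT on chow, from 5.76 to 6.27 and 4.18 to 4.54 on the high-fat diet, and from 1.52 to 1.81 in muscle.

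Of 63 alternative counts of called list genes, 51 stayed within 1.5 times. DESeq2 called 33 in eWAT between nuclei on the high-fat diet (edgeR 17), 24 over the exchange comparisons (edgeR 1) and 21 for diet by nucleus (edgeR 3); without a count filter the last was 1. Without the epithelial libraries edgeR called 43 between nuclei in eWAT on the high-fat diet and 8 over the exchange comparisons. Without the lymph node libraries it called 7 between nuclei in iWAT on chow, 11 between depots on chow and 0 for diet by nucleus. Run as a covariate, which adjusts only among the runs of the high-fat libraries and cannot separate diet from run, left 15 for diet in eWAT, and the G+C and length correction 17 for diet in iWAT. With the animal as a replicate block, depots differed in 18 genes on chow and 26 on the high-fat diet. The hepatocyte-RNA alternative was chosen after seeing the data.

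Leaving out each library, the counts between nuclei ran from 12 to 33 in eWAT and 14 to 27 in iWAT on chow, 10 to 24 in eWAT and 15 to 23 in iWAT on the high-fat diet, and 33 to 37 in muscle. On chow in eWAT, without C57n:C3Hmt replicate 1 or 4, C57n:C57mt replicate 3, C3Hn:C57mt replicate 3 or C3Hn:C3Hmt replicate 2 or 3, they were 16, 13, 16, 16, 14 and 12. On the high-fat diet in eWAT, without C3Hn:C57mt replicate 2 or 3 or C57n:C3Hmt replicate 1 or 2, they were 11, 10, 11 and 10. Diet gave 32 to 38 in eWAT and 34 to 57 in iWAT, the exchange comparisons 0 to 6 and diet by nucleus 0 to 11. Without each replicate number in turn, muscle against eWAT gave 84 to 87 and depots 19 to 30 on chow and 16 to 25 on the high-fat diet. The cause of these shifts was not tested. Counting depth limits Cyp2e1 little, since the lowest library held 65.7 counts.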
